A study of Mus musculus with 2 samples.

Results

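The complement genes described here are 9 members of that system in mouse bone marrow-derived macrophages: the C1q chain genes C1qa, C1qb and C1qc, the central component gene C3, the alternative pathway genes Cfb and Cfp, the receptor genes C3ar1 and C5ar1, and the inhibitor gene Serping1. They were taken by symbol from a fixed list of names, 9 of the 40017 symbols in the expression table; the rule sets no threshold on their values, but the list was drawn up with earlier results of these data known. The study compared 1 KO library with 1 WT library to learn how SPP1, the secreted phosphoprotein osteopontin, affects these cells. The KO cells came from SPP1fl/fl-Lyz2-icre mice, in which both alleles of the gene are floxed and a Cre recombinase is driven by Lyz2, a gene of myeloid cells. The WT cells came from SPP1fl/fl mice, which carry the floxed alleles and no Cre. Both were grown for 5 days with M-CSF, the macrophage growth factor, at 20 ng/ml. Loss of Spp1 and presence of Cre cannot be told apart in this design. Age, sex and the number of animals or cultures behind each library are unstated in the labels. There is 1 library per genotype, so the spread between cultures is unknown, no test was possible, and every difference below is between 2 libraries.

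Complement is a cascade of plasma proteins that tags microbes and dying cells for uptake. C1q recognises its targets and activates the proteases C1r and C1s, which cleave C4 and C2. All routes meet at C3, whose fragments mark surfaces and attract cells, and the alternative route amplifies C3 cleavage through factor B, factor D and properdin. Most components are made by the liver, whereas macrophages are a main source of C1q and properdin and carry receptors for the released peptides C3a and C5a.

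Values are FPKM, fragments scaled to the length of the gene and to the mapped fragments of the library, so levels of different genes can be set side by side within a library. Differences are those of log2(FPKM + 1) in KO less WT, which shrinks differences of weakly expressed genes, and ratios are of FPKM itself. A symbol counted as measured at a mean of at least 1 FPKM over both libraries and as called at a difference of at least 1 in size, which is 2-fold after adding 1 FPKM. The targeted gene Spp1 stood at 11.3 FPKM in KO against 4006 FPKM in WT, and the Cre driver gene Lyz2 at 13539 and 29499 FPKM. Of 10 macrophage markers 9 were measured, with 4 positive and 5 negative differences, and Lyz2 (-1.12) was the 1 called. The next largest differences in size were those of the IgG receptor gene Fcgr1 (0.93), at 190.2 FPKM in KO against 99.2 FPKM in WT, the mannose receptor gene Mrc1 (-0.27) and Cd14 (0.25). Csf1r, the M-CSF receptor gene, stood at 851.8 and 834.7 FPKM. Aif1, whose symbol has 4 rows in the table, was the marker below 1 FPKM in both. Markers of lymphocytes, neutrophils and dendritic cells summed to 9.59, 3.34 and 1.30 FPKM in KO and to 11.3, 2.08 and 1.499 FPKM in WT, and most of the lymphocyte sum was Cd4, which mouse macrophages can also express. Of 6 hepatocyte markers none was measured, and they summed to 0.103 FPKM in KO against 0.543 FPKM in WT. The WT library was deeper, by an estimated factor of 1.308.

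The order of the 9 genes by level was the same in both libraries: C1qb, C1qc, C3ar1, C1qa, C5ar1, Cfp, C3, Serping1 and Cfb. C1qb was number 26 of all symbols by FPKM in KO and number 32 in WT, while Cfb was listed near the floor in both. Of the 9 genes, 8 were measured, and 1 of these, Serping1, was called, lower in KO. Over all 10536 measured symbols, 0.475% were called lower and 1.23% higher. The 7 other measured genes differed by between -0.16 and 0.35. The 9 genes together summed to 3102 FPKM in KO against 2859 FPKM in WT, which is 0.735% and 0.671% of all summed FPKM.

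**Figure D1:**
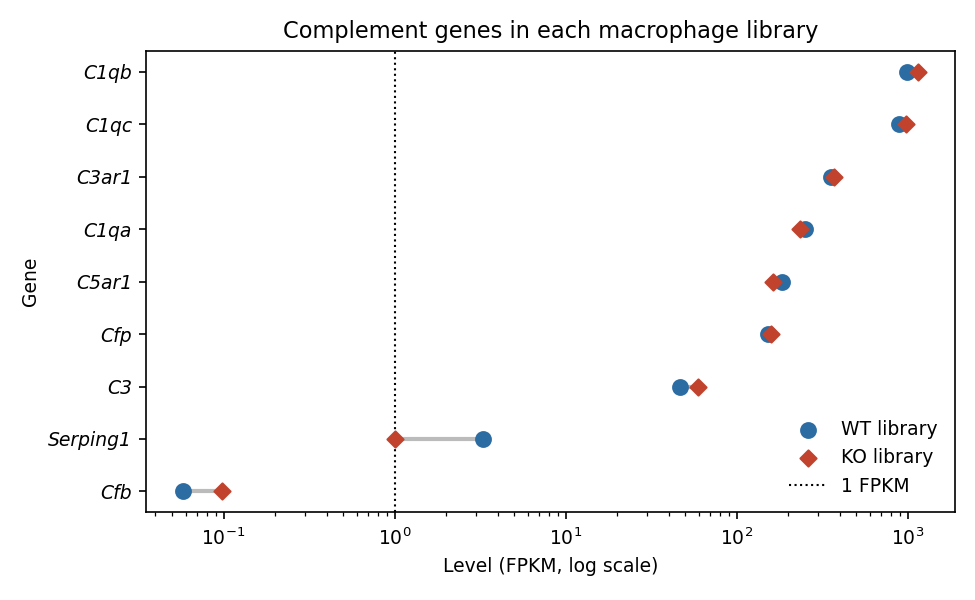
Levels of the 9 complement genes in the KO library (diamonds) and the WT library (circles), in FPKM on a log scale, 1 library per genotype; the dotted line is 1 FPKM. The symbols of 7 genes lie close together, Serping1 stands at 1.01 FPKM in KO against 3.27 FPKM in WT, and Cfb lies below 0.1 FPKM in both.

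The 9 genes lie on 6 chromosomes and all stand on the minus strand. The C1q genes form 1 cluster of 18.7 kb on chromosome 4 (GRCm38, 136880129 to 136898803), in the order C1qb, C1qc and C1qa, with 3616 bases between C1qb and C1qc and 2851 bases between C1qc and C1qa. C3 (57203970 to 57228136) and Cfb (34856374 to 34862518) both lie on chromosome 17, far apart. To show the sequence next to the most abundant member and next to the member with the largest positive difference, the 250 bases before the RefSeq start of C1qb and of C3 are printed, from RefSeq on GRCm38.p6, minus strand, read 5′ to 3′. Capitals mark matches, on either strand, to GAGGAA (the core bound by PU.1, a macrophage factor), TGCTGA (the core bound by Maf factors), and TTGCNNAA (C/EBP factors); no matches overlap.
C1qb, chr4:136886201-136886450: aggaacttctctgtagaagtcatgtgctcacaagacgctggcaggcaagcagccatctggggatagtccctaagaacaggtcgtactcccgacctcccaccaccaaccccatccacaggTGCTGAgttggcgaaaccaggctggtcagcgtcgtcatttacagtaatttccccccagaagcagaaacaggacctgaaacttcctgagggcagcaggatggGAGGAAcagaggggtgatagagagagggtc
C3, chr17:57228137-57228386: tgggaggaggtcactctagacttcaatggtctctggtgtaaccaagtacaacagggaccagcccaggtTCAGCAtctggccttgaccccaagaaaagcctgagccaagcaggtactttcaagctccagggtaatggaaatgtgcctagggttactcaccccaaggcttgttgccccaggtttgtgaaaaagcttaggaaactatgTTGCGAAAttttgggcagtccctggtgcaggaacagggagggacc
The C1qb window holds TGCTGA and GAGGAA on the printed strand, and the C3 window holds TGCTGA on the other strand and TTGCNNAA on the printed strand. Among 32851 RefSeq windows of 250 bases, 23.3% hold GAGGAA, 16.1% TGCTGA and 9.56% TTGCNNAA, so such matches are common. The interferon elements TTCNNNGAA (in 7.02% of windows) and GAAANNGAA (in 7.13%) were not in either printed window. RefSeq windows were at hand for 6 of the 9 genes; those of C1qa, Cfb and Serping1 were not analysed here.

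The C1q chains, which assemble in equal copy number into the recognition molecule, were abundant in both libraries. C1qb stood at 1145 FPKM in KO against 983 FPKM in WT, a ratio of 1.16. C1qc stood at 970 and 889 FPKM, a ratio of 1.09. C1qa went the other way, at 232.7 FPKM in KO against 249.9 FPKM in WT, a ratio of 0.931. None of these reached the size set for a call. The differences were 0.22 for C1qb, 0.13 for C1qc and -0.10 for C1qa, and 22.2%, 44.9% and 53.0% of all measured symbols differed by at least as much in size. Together the chains made up 0.556% of all FPKM in KO and 0.498% of those in WT.

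The levels of the chains were unequal in the same way in both libraries. C1qa made up 9.91% of the 3 chains in KO and 11.8% in WT, C1qb 48.8% and 46.3%, and C1qc 41.3% and 41.9%. C1qb stood 1.18-fold above C1qc in KO and 1.11-fold above it in WT, while it stood 4.92-fold and 3.93-fold above C1qa. These shares do not depend on how a library was scaled, but they do depend on the gene lengths that the authors used, which are not given. The 18 other measured protein-coding genes within 1 Mb of the cluster had a median difference of 0.05, ranging from -0.16 to 0.24, and none was called.

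**Figure D2:**
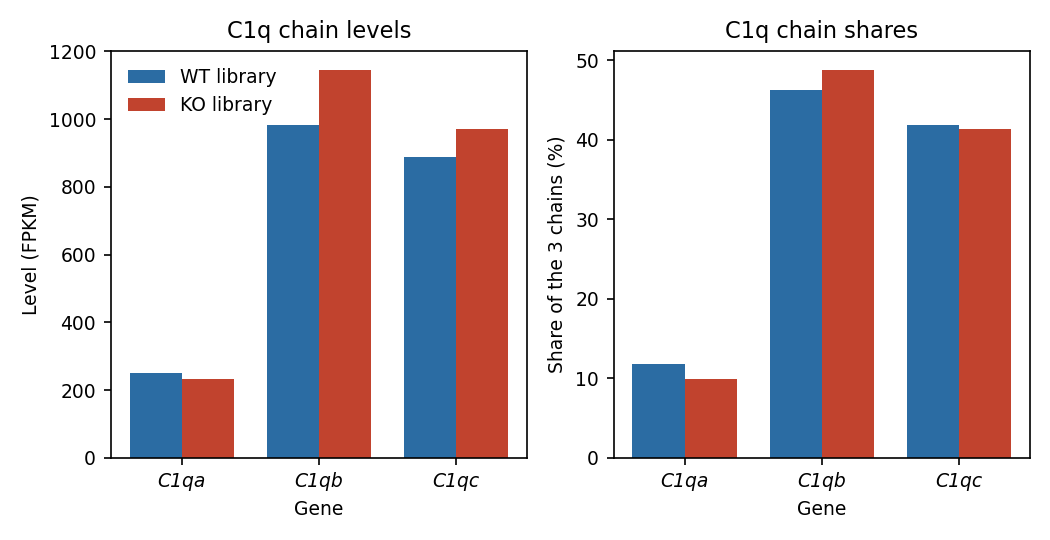
Left, levels of C1qa, C1qb and C1qc in FPKM; right, the share of each in the sum of the 3 chains in percent, for the WT and the KO library (1 each, so there are no error bars). C1qb and C1qc take over 40% each in both libraries and C1qa takes 9.91% in KO and 11.8% in WT.

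The partners through which C1q acts were at far lower levels. C1ra, a C1r protease gene, stood at 3.47 FPKM in KO against 3.51 FPKM in WT, so that C1qb stood 330-fold above it in KO and 280-fold in WT. C1s1, a C1s protease gene, stood at 0.0390 and 0.164 FPKM. C4b, the C4 component gene, stood at 0.0318 and 0.0812 FPKM, and C2 was listed at 0 in KO and at 0.166 FPKM in WT; both symbols have 4 rows, and their values are uncertain. Among lectin pathway genes, the ficolin gene Fcna stood at 1.96 and 1.89 FPKM, whereas the mannose-binding lectin genes Mbl1 and Mbl2 were listed at 0 in both. In all, 2 of 17 other initiating genes were measured, C1ra and Fcna, with differences of -0.01 and 0.04.

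C3, the component on which all routes converge, had the largest positive difference among the 9 genes. It stood at 59.6 FPKM in KO against 46.5 FPKM in WT, a ratio of 1.28 and a difference of 0.35. It was number 1118 of all symbols in KO and number 1414 in WT. A difference at least as large in size was seen in 9.92% of all measured symbols, and in 6.92% of the 4960 symbols with a mean from 10 to under 100 FPKM. Its 28 measured protein-coding neighbours within 1 Mb had a median difference of -0.04, ranging from -0.30 to 0.68.

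Of the alternative pathway, properdin was abundant and factor B was listed near the floor. Cfp, the gene of properdin, which stabilises the C3-cleaving enzyme, lies on chromosome X (20925454 to 20931555) and stood at 158.5 FPKM in KO against 151.5 FPKM in WT, a difference of 0.06. It stood 2.66-fold above C3 in KO and 3.26-fold above it in WT. Cfb, the gene of the protease factor B, stood at 0.0978 FPKM in KO against 0.0581 FPKM in WT in the highest of its 4 rows, and at 0 in the other 3 rows. From the estimated depths these values correspond to about 4.80 and 3.73 fragments, so no direction was drawn for Cfb. Because the symbol has 4 rows, its level is uncertain too. Cfd, the gene of factor D, which cleaves factor B, was listed at 0 in both libraries.

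The receptors for the peptides released during activation were close to equal. C3ar1, the C3a receptor gene, stood at 371.7 FPKM in KO against 353.5 FPKM in WT, a difference of 0.07. C5ar1, the C5a receptor gene, stood at 163.5 and 182.4 FPKM, a difference of -0.16. C3ar1 thus stood 2.27-fold above C5ar1 in KO and 1.94-fold in WT, and the sum of both genes was 535.3 FPKM in KO against 535.9 FPKM in WT. C5ar2, a second C5a receptor gene, stood at 5.09 and 5.53 FPKM.

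The other receptor genes were measured in 8 of 10 cases and none was called. Itgam and Itgax, whose products pair with that of Itgb2 to form receptors for cleaved C3, stood at 303.9 FPKM in KO against 323.4 FPKM in WT and at 135.0 and 124.7 FPKM, and Itgb2 itself at 483.3 and 476.1 FPKM. Calr, the gene of calreticulin, a C1q-binding protein, stood at 478.3 and 441.6 FPKM, and C1qbp, which has 2 rows, at 27.2 and 36.4 FPKM. Vsig4, a receptor of resident macrophages for cleaved C3, was below 1 FPKM in both. The median difference of the 8 genes was -0.04, beside -0.01 over all measured symbols.

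**Figure D3:**
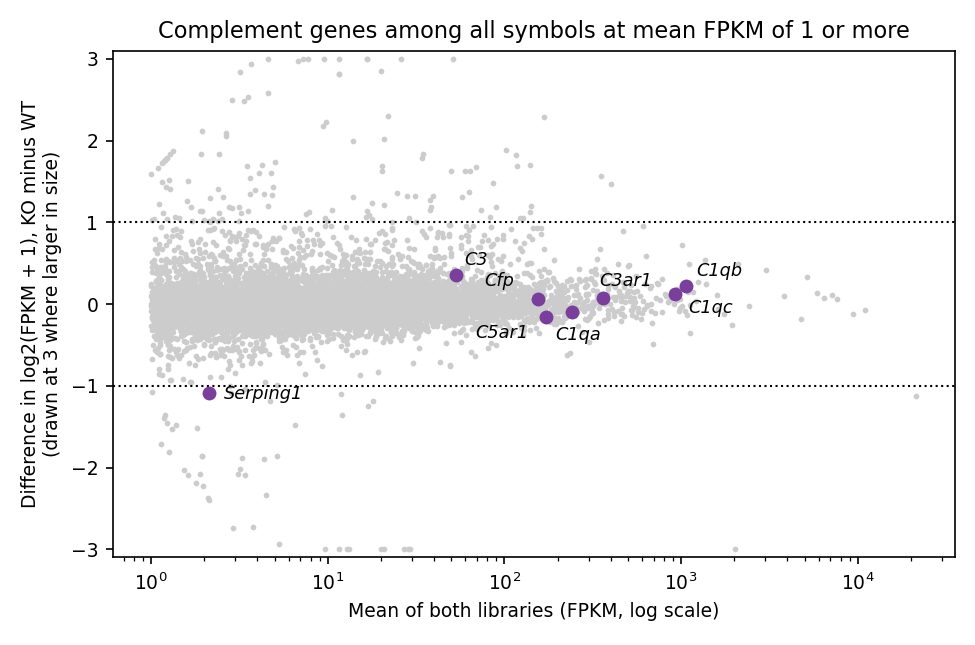
Difference in log2(FPKM + 1), KO minus WT, against the mean FPKM of both libraries on a log axis, for all measured symbols (grey; values beyond 3 in size are drawn at 3) and the 8 measured complement genes (purple); dotted lines mark the size set for a call. Serping1 lies below the lower line at -1.09 and the other 7 genes lie between -0.16 and 0.35.

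Serping1, the gene of C1 inhibitor, which inactivates C1r and C1s and proteases of the lectin and kinin pathways, was the called gene. It lies on chromosome 2 (84765387 to 84775444) and stood at 1.01 FPKM in KO against 3.27 FPKM in WT, 3.25-fold lower in KO (difference -1.09). KO held 30.8% of the WT level. The difference was -0.46 with a pseudocount of 5 FPKM, where it was not called; nor was it called at a size of 3-fold or with a minimum mean of 5 FPKM, which leaves the gene out. From the estimated depths and annotated exons this is about 40.7 fragments in KO and 172.8 in WT. Of all measured symbols, 46 had a difference this low or lower. Among the 4977 symbols with a mean from 1 to under 10 FPKM, 32 had one, and 0.723% were called lower. C3 stood 59.2-fold above Serping1 in KO and 14.2-fold above it in WT.

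No measured neighbour of Serping1 and no other measured gene of the serpin list was called lower. The 14 measured protein-coding genes within 1 Mb had a median difference of 0.06, and 1 of them was called, in the other direction: Ube2l6, an enzyme gene for ISG15 conjugation, 23383 bases away, stood at 101.6 FPKM in KO against 45.0 FPKM in WT. Among 10 serpin genes fixed as a list, 6 were measured and Serping1 was the one called. Serpinb6a stood at 267.7 and 303.3 FPKM, and Serpinb6b at 4.39 and 3.56 FPKM.

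Stromal marker genes, which mark fibroblast-like cells that also make C1 inhibitor, had lower values in KO for 12 of 12 genes of the list. Of the 12 listed genes, 3 were measured, all 3 with negative differences, and 1, Dcn, was called lower. Over all 10536 measured symbols, 5547 had a negative difference and 0.475% were called lower. At a mean from 1 to under 10 FPKM, where Dcn lies, 0.723% were called lower. A minimum mean of 5 FPKM would leave Dcn out, as it does Serping1. The other 9 listed genes were below 1 FPKM on average, so that background does not cover them and depth limits their directions. The summed level of the 12 was 16.7 FPKM in KO against 24.5 FPKM in WT. Without Fn1, which macrophages also express, it was 5.52 and 11.5 FPKM. The matrix gene Dcn stood at 1.46 and 4.23 FPKM, 2.90-fold lower in KO, and Bgn at 1.84 and 3.18 FPKM. The ratio of WT to KO over the 11 genes without Fn1 ran from 1.10 to 6.12, with a median of 2.24, and that of Serping1 was 3.25. The 6.12 was that of Lum, near the floor at 0.0277 FPKM in KO against 0.170 FPKM in WT. C1s1, a gene outside the stromal list, was 4.20-fold lower in KO, but it rests on few fragments and no direction was drawn for it. C1ra, also outside the list and better measured, had a difference of -0.01. The part of stromal cells in the Serping1 value was not tested. In bulk RNA, fewer cells of a type and less RNA per cell cannot be told apart.

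**Figure D4:**
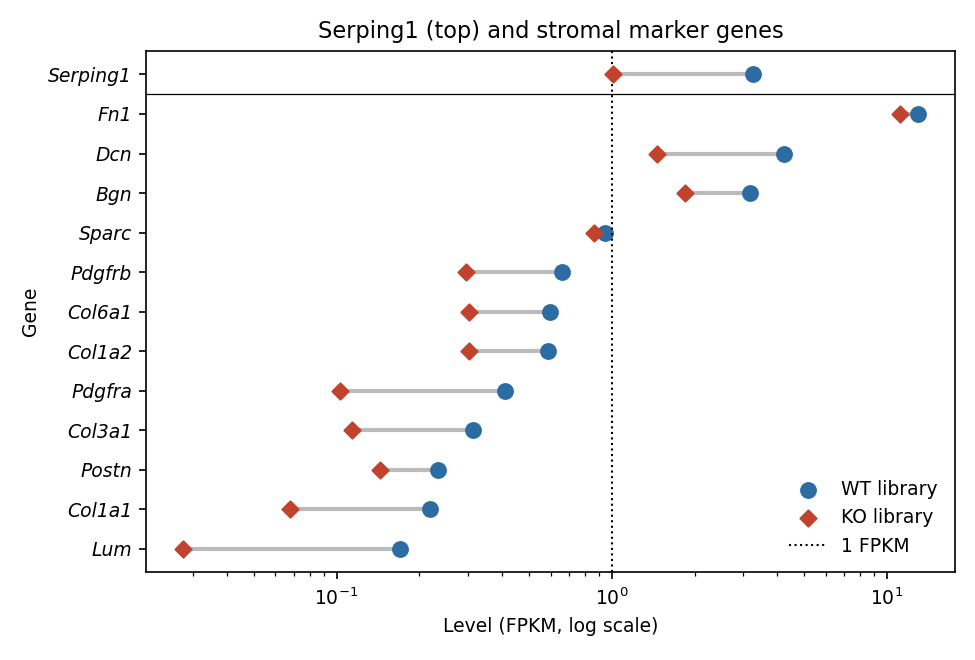
Levels of Serping1 (top row) and of the 12 stromal marker genes in the KO library (diamonds) and the WT library (circles), in FPKM on a log scale, 1 library per genotype; the dotted line is 1 FPKM. Each diamond lies to the left of its circle.

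Of 18 other inhibitor genes 4 were measured and none was called, with 3 negative differences, 1 positive and a median of -0.20. Cr1l (Crry), a membrane regulator of C3 cleavage in mice, stood at 28.9 FPKM in KO against 34.1 FPKM in WT. Cd59a, which blocks the membrane attack complex, stood at 2.87 and 3.77 FPKM. Thbd, the thrombomodulin gene, went the other way at 4.47 and 3.94 FPKM, as did Clu, the gene of clusterin, a soluble inhibitor of the membrane pore, at 1.17 and 0.599 FPKM, below the filter on average. Cd55 and Cd46, membrane regulators, were at most 0.322 FPKM. The terminal components, which form the membrane pore, were listed at 0 in both libraries for 6 of 7 genes, including Hc, the mouse C5 gene; the exception, C8g, stood at 3.76 FPKM in KO against 2.28 FPKM in WT.

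Over the 52 other complement genes in 4 lists, 15 were measured and 0 were called in either direction. Of all measured symbols 1.71% were called, so 0 of 15 is near that share. Their median difference was -0.01, as was that of all measured symbols. No p-value can be had for this count with 1 library per genotype.

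Genes induced by interferon, some complement genes among them in other settings, for the most part differed by larger amounts than most of the 9 genes. All 24 type I interferon genes of the list were higher in KO and 18 were called, with a median difference of 1.31. Ifi44 stood at 37.3 FPKM in KO against 6.76 FPKM in WT. Of 16 measured interferon gamma genes, 5 were called, all higher, with a median difference of 0.82, led by Ly6a at 16.8 and 2.81 FPKM. The 16 differences were all positive but uneven, from 0.03 to 2.22. The 0.03 was that of Ciita, at 8.05 FPKM in KO against 7.86 FPKM in WT, and Irf1 had a difference of 0.32. Among the 9 genes the largest positive difference was the 0.35 of C3, and Serping1, which interferon gamma induces in human cells, was lower.

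Factors that act on macrophage and complement genes were also set beside the 9 genes. Of 12 such genes all were measured and 1 was called: Irf7, an interferon-induced factor, at 214.0 FPKM in KO against 65.2 FPKM in WT. Irf1 stood at 41.7 and 33.2 FPKM, and Irf8 at 108.6 and 89.1 FPKM. Among macrophage factor genes, Spi1 (PU.1) stood at 233.5 and 245.1 FPKM, and Cebpb at 58.8 and 63.9 FPKM, both closer to equal. Maf stood at 45.0 and 52.5 FPKM, and Pparg at 42.9 and 51.3 FPKM. The differences of Maf (-0.22) and Pparg (-0.25) were nearly as large in size as that of Irf8 (0.28).

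**Figure D5:**
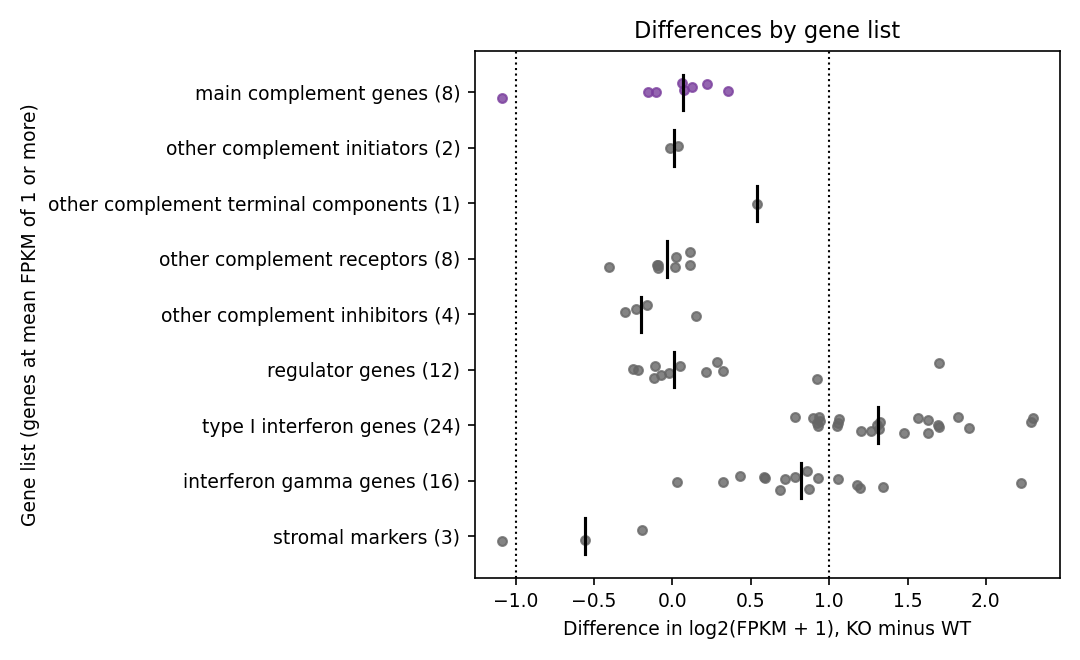
Difference in log2(FPKM + 1), KO minus WT, of each measured gene (points, with vertical scatter for legibility) and the median (bar) for the main complement genes, 4 lists of other complement genes and 4 comparison lists; the number of measured genes is given beside each list and dotted lines mark the size set for a call. No gene of the 4 lists of other complement genes passes a dotted line, Serping1 lies beyond the left one at -1.09, and the interferon lists have medians of 1.31 and 0.82.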

How the data were processed

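RNA was measured in 2 libraries of bone marrow-derived macrophages, 1 KO and 1 WT, grouped by their titles. The values are the authors' deposited FPKM, 1 table of 42396 rows; per the submitters' processing notes RSEM, DESeq2 and the build mm10 were used, without stated roles or versions. Which aligner, gene models and filters were applied is not given in the sources used here. Of the 4 value columns in the table, 2 that match no sample were not used. Where a symbol had several rows, the one with the highest mean was used (40017 symbols, 1766 of them with several rows).

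With Python 3.11.15, pandas 2.3.3 and numpy 2.4.6, the WT value of log2(FPKM + 1) was subtracted from the KO value for symbols with a mean of at least 1 FPKM, and called at 1 in size (2-fold). The calls were also run on simulated data, where the changed genes scored had mean levels above that of Serping1. The spread between cultures is unknown, so such a run cannot tell how often a call is wrong. Named genes were the 9 members, Spp1, Lyz2 and up to 4 measured genes of each list with the largest differences; other named genes were chosen after their values were seen. A few genes that this rule takes are left unreported. The members and lists were chosen with earlier results of these data known. Coordinates, gene IDs and exon lengths are from GENCODE M21 on GRCm38 (mm10).

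Depth was read from the steps of values below 0.3 FPKM. The ratio of KO to WT values was most often 1.308 (396 of 2833 symbols), taken as equal reads. In genes with 1 transcript of at least 1000 bases, the most common step gave 17.4 M fragments in KO and 22.7 M in WT, from 69 of 407 and 67 of 467 genes. A finer step, set as a fixed multiple of these depths rather than found in the values, lay at 34.8 M and 45.5 M. It was matched by 22 of 407 and 24 of 467 genes, so the estimated fragment numbers may be too low. No counting interval is given.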

Additional observations from a re-analysis of the deposited data

How the results depend on the processing

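No paired analysis was possible because each genotype has 1 library, and for the same reason no library could be left out. Over 11 alternatives to the pseudocount, library scaling, filter, row handling and size, each of the 8 measured genes kept its sign. Only the library scalings could have altered a sign. The pseudocount, filter and size cannot, and none of these genes has several rows. Serping1 ranged from -1.61 with a pseudocount of 0.1 FPKM to -0.46 with one of 5 FPKM, where it was not called; it was also not called at a size of 3-fold, and a minimum mean of 5 FPKM removed it, so that the count of called complement genes was 0 in these 3 settings and 1 in the others. C3 ranged from 0.30 to 0.37. The smallest positive differences, of Cfp and C3ar1, shrank to 0.01 when libraries were scaled to their sum without Spp1 and Lyz2. Called genes in the comparison lists numbered 25, and 40 at a size of 1.5-fold and 9 at 3-fold, where the size itself sets the count; the count for other complement genes was 0 throughout. Depth limits genes below 1 FPKM: Cfb, C1s1, C2 and C4b rest on few fragments.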
